A study of Homo sapiens with 19 samples.

Results

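A pair of V5 chromatin immunoprecipitation sequencing (ChIP-seq) interval lists was compared, that of the E2F1 mutant K185R and that of wild-type (WT) E2F1, both from C4-2 prostate cancer cells given doxycycline and then the LSD1 inhibitor GSK2879552. The K185R list held 3498 intervals and the WT list 3874, which is 7372 of the 203381 intervals in the 10 lists of the series. Both lines carry a tetracycline-controlled E2F1 and were grown in charcoal-stripped serum, and both received 0.25 ug/ml doxycycline for 3 days and then 50 uM GSK2879552 for 24 hours. Each list stands for 2 libraries, merged before intervals were called going by the interval names, so the spread between libraries cannot be measured. The RB sites come from C4-2 cells (9146 sites, 2 libraries) and from VCaP cells, another prostate cancer line (17026 sites, 1 library), both untreated and in charcoal-stripped serum. The labels do not say whether the E2F1 lines are single clones, and V5 ChIP from cells without tagged E2F1 was not analysed here. The interval names of both V5 lists carry the word siRB where the labels say doxycycline; the groups here follow the labels, and RB levels in these cells were not measured in the files used.

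E2F1 is a transcription factor that drives genes of DNA replication and cell division, and RB is the pocket protein that binds E2F1 on chromatin and restrains it. LSD1 (KDM1A) removes methyl groups from lysines of histone H3 and of some other proteins. The lysine that K185R replaces by arginine is a known site of methylation by SETD7 and of demethylation by LSD1. The comparison therefore asks where tagged E2F1 with and without this lysine lies on chromatin while LSD1 is inhibited, and whether it lies at RB sites.

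The sequencing depth of both lists was nearly the same, 0.838 reads per kilobase for K185R and 0.810 for WT, and both were shallow. The median summit (the highest point of an interval) rested on 5 reads in both lists, and 66.5% of the K185R and 50.2% of the WT intervals had 5 or fewer. The floor of a list is the genome-wide expectation of reads. Intervals whose local background reached 10 times that floor are called high-background here, and they numbered 375 in the K185R list and 424 in the WT list. Unless stated otherwise, values below are for the 3123 K185R and 3450 WT intervals of low background, set against the full other list. Each group has 1 list, so no difference between the lists has a replicate check and no p-value is given. Intervals in brackets after a share are 95% Wilson intervals, which cover counting error over intervals or sites only.

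At low background most intervals of either list were absent from the other, and the shared part was larger among strong intervals. Of the K185R intervals, 285 of 3123 (9.13%, 8.17 to 10.2) overlapped a WT interval by at least 1 base, and of the WT intervals 272 of 3450 (7.88%, 7.03 to 8.83) overlapped a K185R interval. With both V5 lists restricted to low background and −log10 q 5 or more, 48.6% of the K185R and 16.8% of the WT intervals were shared. Both lists restricted to low background alone gave 8.65% for K185R and 7.80% for WT. In the full lists the shares were 17.4% for K185R and 15.6% for WT, and at that threshold 74.0% for K185R and 38.9% for WT. Intervals of both lists were stronger than those of one list alone. In the K185R list their median fold enrichment (reads at the summit over the local background) was 6.85 on 9 summit reads for shared intervals and 4.96 on 5 reads for the rest. In the WT list it was 7.17 on 10 reads for shared intervals and 5.12 on 5 reads for the rest. The overlap lay mostly among strong intervals: 203 of the 624 K185R intervals in the top quintile by −log10 q were shared, and 12 of the 625 in the lowest quintile. In the WT list 177 of 690 in the top quintile were shared and 9 of 690 in the lowest. With high background included, the WT direction changed among intervals of −log10 q 5 or more, where the median fold of shared minus unshared intervals was -0.468.

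The K185R list held fewer intervals at RB sites than the WT list. Of the K185R intervals, 175 (5.6% of 3123) lay at a C4-2 RB site, and of the WT intervals 846 (24.5% of 3450). Among the 2838 intervals of the K185R list alone, 30 were at a C4-2 RB site, of which 5 were also RB sites in VCaP. Among the 3178 intervals of the WT list alone, 714 were at a C4-2 RB site, of which 527 were also RB sites in VCaP. A further 2 intervals of the K185R list alone and 144 of the WT list alone lay at RB sites found in VCaP and not in C4-2. Intervals that both lists held divided the other way from those of the WT list alone. Counted in the K185R list, 114 were at RB sites of C4-2 only and 31 at RB sites of both lines. Shares of the full lists, high background included, were 14.5% for K185R and 31.2% for WT. In those full lists the order was the other way where V5 and RB intervals were both held to a −log10 q of 5 or more, with 70.6% for K185R and 65.2% for WT. At low background, with that threshold on the V5 intervals only, the shares were 45.4% for K185R and 62.0% for WT.

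**Figure D1:**
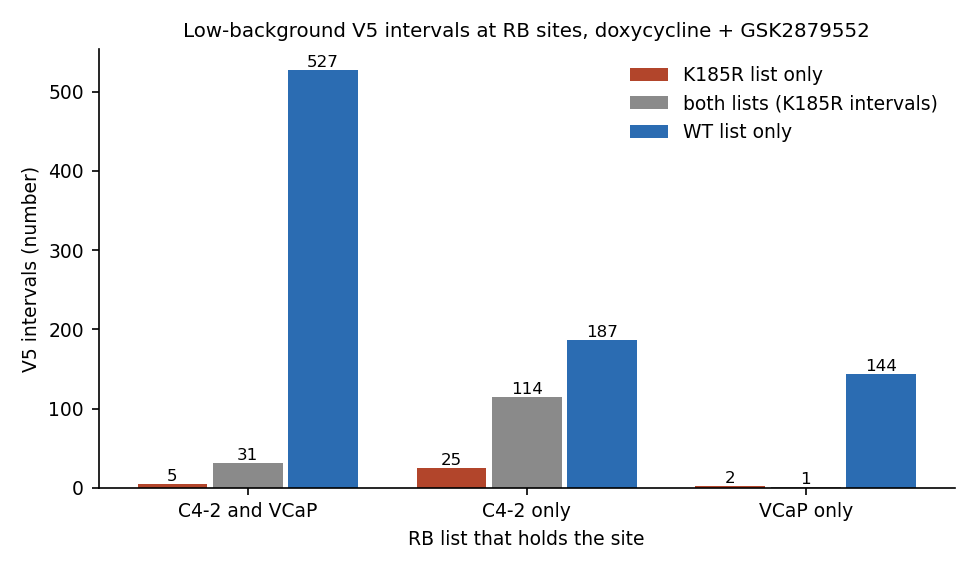
Number of low-background V5 intervals (vertical axis) at RB sites held by both cell lines, by C4-2 only or by VCaP only (horizontal axis). Bars stand for intervals of the K185R list only, of both lists (counted in the K185R list) and of the WT list only. At RB sites of both lines the K185R-only bar reaches 5 and the WT-only bar 527, and each group is a single list without error bars.

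Counted over RB sites, the K185R list held fewer than the WT list in both classes of site. Of the 8709 C4-2 RB sites of low background, 358 (4.11%) had a K185R interval and 1063 (12.2%) a WT interval, intervals of high background included. An interval in the K185R list alone was found at 60 of these sites (0.689%), in the WT list alone at 765 (8.78%) and in both at 298 (3.42%). At the 5233 sites that VCaP shared, 76 had a K185R interval (1.45%, 1.16 to 1.81) and 604 a WT interval (11.5%, 10.7 to 12.4), which is 7.95 times as many for WT. That ratio depended on the setting: it was 14.8 without V5 intervals of high background (0.729% for K185R and 10.8% for WT), and ranged from 4.49 to 16.0 over the settings run, WT being higher in each. The site-by-site split there was 10 in K185R alone, 538 in WT alone and 66 in both. At the 3476 sites of C4-2 only, 282 had a K185R interval (8.11%, 7.25 to 9.07) and 459 a WT interval (13.2%, 12.1 to 14.4), a WT count 1.63 times the K185R count. There the split was 50 in K185R alone, 227 in WT alone and 232 in both. Most sites with a K185R interval thus also had a WT interval, 86.8% at RB sites of both lines and 82.3% at those of C4-2 only. The reverse share was 10.9% of the WT sites at RB sites of both lines and 50.5% at those of C4-2 only.

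VCaP RB sites that the C4-2 RB list did not hold showed the same order at a lower level. Of 11807 such sites of low background, 4 had a K185R interval (0.0339%, 0.0132 to 0.0871) and 136 a WT interval (1.15%, 0.975 to 1.36). At the 5009 VCaP sites also in the C4-2 list, 105 had a K185R interval and 627 a WT interval (12.5%).

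V5 intervals were more frequent at strong RB sites than at weak ones in both lists. The 8709 RB sites were divided into quintiles by the −log10 q of RB in C4-2. At RB sites of both lines, K185R intervals were present, from the weakest to the strongest quintile, at 1 of 879 sites (0.114%), 1 of 973, 6 of 1052, 6 of 1161 and 62 of 1168 (5.31%, 4.16 to 6.75). WT intervals were present at 45 (5.12%), 70, 77, 139 and 273 (23.4%) of the same sites, with a bracket of 21.0 to 25.9 in the strongest quintile. At RB sites of C4-2 only, the strongest quintile held K185R intervals at 200 of 573 sites (34.9%, 31.1 to 38.9) and WT intervals at 256 (44.7%, 40.7 to 48.8). The brackets of the lists overlapped in quintile 4 of the C4-2-only sites, with 44 of 581 sites (7.57%) for K185R and 72 (12.4%) for WT, and in no other quintile of either class.

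**Figure D2:**
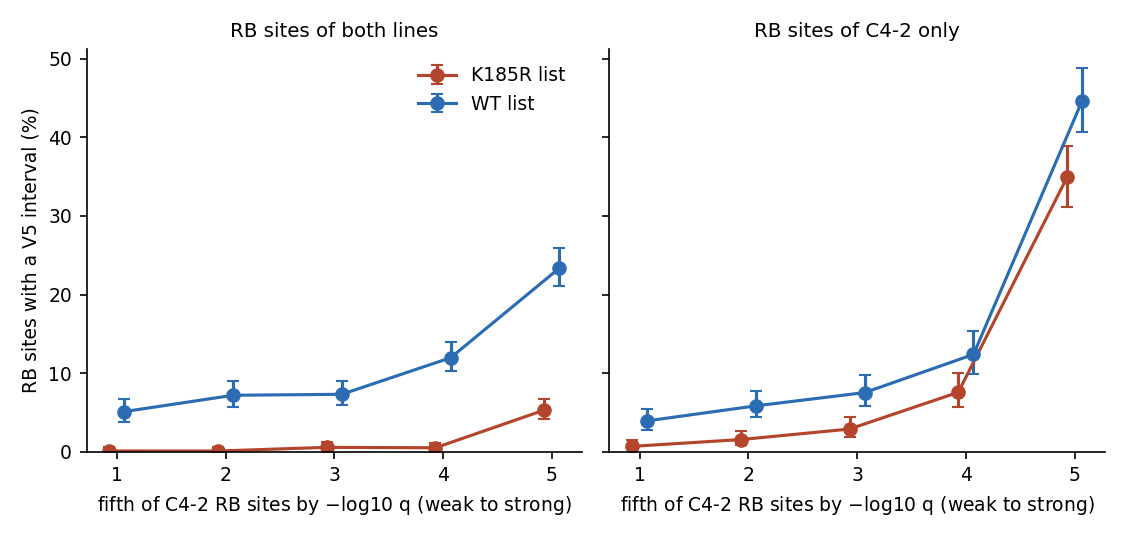
Percent of C4-2 RB sites that hold a V5 interval (vertical axis) by quintile of RB strength (horizontal axis, weak to strong), for RB sites of both lines (left) and of C4-2 only (right). Points are single lists and bars are 95% Wilson intervals; at RB sites of both lines the K185R list stays at or below 5.31% while the WT list reaches 23.4%.

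The median RB fold in C4-2 was higher at sites with V5 than at sites without. At RB sites of both lines, the median RB fold enrichment in C4-2 was 6.83 at the 10 sites with K185R alone, 6.86 at the 538 with WT alone, 10.3 at the 66 with both and 5.86 at the 4619 with neither. The median RB fold in VCaP at these sites was 5.68, 7.35, 9.66 and 6.48 in the same order. At RB sites of C4-2 only it was, in C4-2, 6.93 for K185R alone, 6.22 for WT alone, 8.76 for both and 5.38 for neither.

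The 8 regions of the WT list alone with the highest −log10 q all lay at C4-2 RB sites, and 5 of them were RB sites in VCaP as well. By the choice of the class, the K185R list of the combined treatment had no interval at any of the 8. The first, chr4:83933991-83934253 (hg19, as are all coordinates), had a WT fold enrichment of 14.8 on 24 summit reads and RB folds of 4.85 in C4-2 and 6.79 in VCaP. It was present in other K185R lists with a fold of 5.70 under doxycycline and 8.41 under GSK2879552, and in other WT lists with 7.83 untreated, 8.53 under doxycycline and 8.96 under GSK2879552. The second, chr1:51434175-51434475, had a WT fold of 14.6 on 24 reads, with RB folds of 12.0 in C4-2 and 7.36 in VCaP. None of the 4 K185R lists had an interval there, while other WT lists had folds of 4.99 untreated and 12.8 with GSK2879552.

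At chr19:14016782-14017074 the WT fold was 12.5 on 22 reads and RB was strong in both lines, with folds of 14.3 in C4-2 and 14.9 in VCaP. Here too no K185R list had an interval, against folds of 8.79 in untreated WT cells and 8.64 in WT cells with GSK2879552. The region chr6:33359380-33359677 had a WT fold of 13.5 on 22 reads, and its RB folds were 6.32 in C4-2 and 7.97 in VCaP. One K185R list held it, that with GSK2879552, at a fold of 6.10. At chr16:28962056-28962375 the WT fold was 12.1 on 21 reads, with RB folds of 5.39 in C4-2 and 12.0 in VCaP, and the K185R list with GSK2879552 had a fold of 8.48. The other 3 regions, chr6:160148302-160148626, chr1:249200781-249201020 and chr1:31904658-31905026, were RB sites of C4-2 only, with WT folds of 13.8, 13.7 and 12.6, and each had an interval in at least 2 other K185R lists.

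The 8 strongest regions of the K185R list alone were weaker, with folds of 8.02 to 10.3 on 9 to 14 reads, against 12.1 to 14.8 on 19 to 24 reads for the WT list alone. The first, chr1:22699282-22699606, had a K185R fold of 10.3 on 13 reads and was the one of the 8 at an RB site, with an RB fold of 8.24 in C4-2 and no VCaP site. It was present in each of the 6 other V5 lists, with folds of 6.06 to 11.3. The next, chr1:78322935-78323265 and chr15:93747342-93747669, had equal K185R folds of 9.83 on 12 reads and were likewise present in all 6 other V5 lists. The region chr13:69610340-69610672, with a K185R fold of 8.27 on 9 reads, was present in 3 lists in all. The remaining 4, chr5:14634364-14634680, chr11:87825385-87825726, chrX:53935226-53935545 and chr10:57305119-57305416, had K185R folds of 8.81, 8.40, 8.31 and 8.02. Each of the 8 had an interval in at least 1 WT list of another treatment.

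The 8 strongest regions of both lists were found in all V5 lists. Of the 8, 7 were at C4-2 RB sites and none of the 8 at a VCaP RB site. At chr10:98561243-98561664 the fold was 23.2 on 58 reads in K185R and 22.9 on 57 reads in WT. At chr9:70327320-70327669 it was 18.9 on 38 reads in K185R and 19.7 on 42 reads in WT, with an RB fold of 30.8 in C4-2. At chr21:32114559-32114904, which was no RB site, it was 17.6 on 27 reads in K185R and 14.5 on 21 reads in WT. Of the other 5, 4 lay on chromosome 9 and 1 on chromosome 8, with K185R folds of 15.1 to 19.5. All 8 had an interval in each of the 8 V5 lists.

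**Figure D3:**
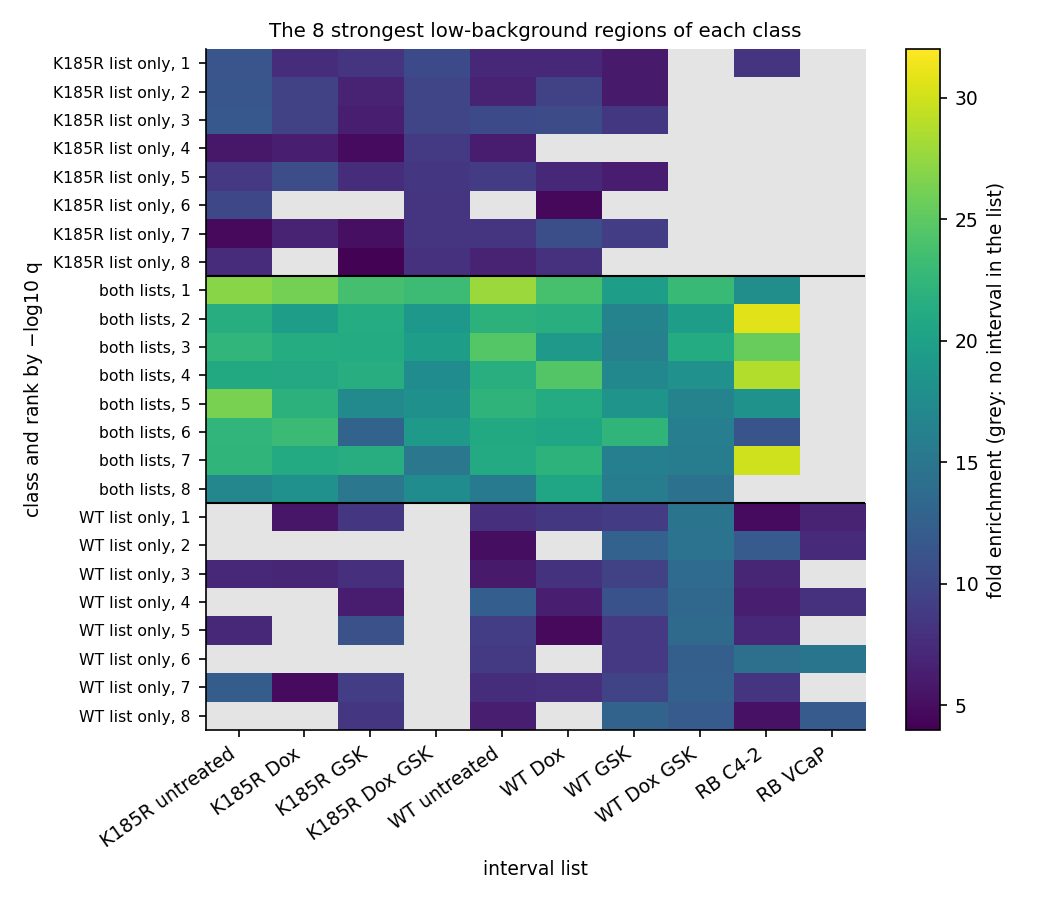
Fold enrichment (colour) of the 8 strongest low-background regions of each class, ranked by −log10 q (vertical axis; for both lists, by the smaller of the pair), in each of the 10 interval lists (horizontal axis; grey, no interval). Regions of both lists fill all 8 V5 columns with folds of 12.9 to 27.8, while all regions of the WT list only lie at C4-2 RB sites and 2 of them are grey in every K185R column.

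Regions held by both lists had similar strength in both, except at some RB sites. These regions were chosen for a call in both lists, a choice that favours similar folds, so the ratios are a description. Over 271 pairs of overlapping low-background intervals, the median log2 ratio of the K185R fold to the WT fold was -0.03, with 80% of the pairs from -0.63 to 0.37. At the 99 pairs on RB sites of C4-2 only, the median folds were 8.29 in K185R and 8.69 in WT (median log2 ratio -0.02). At the 140 pairs off C4-2 RB sites they were 5.79 in K185R and 6.19 in WT (-0.01). At the 32 pairs on RB sites of both lines they were 6.29 in K185R and 7.86 in WT (-0.18), and WT was the higher in 21 of them.

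In all, 9 pairs differed by at least 2-fold, chosen after their values were seen. Of these, 6 were RB sites of both lines and the other 3 RB sites of C4-2 only. WT was higher in 8 of the 9, including all 6 on RB sites of both lines. The largest difference was at chr6:8102831-8103020, an RB site of C4-2 only. Its fold was 4.14 on 4 reads in K185R and 11.6 on 17 reads in WT, a log2 ratio of -1.49. At chr12:54673815-54674004, an RB site of both lines, the fold was 4.96 on 5 reads in K185R and 13.5 on 21 reads in WT (-1.44). At chr14:105218985-105219174 it was 5.70 on 6 reads in K185R and 14.2 on 24 reads in WT (-1.31). The region chr1:174968986-174969175 had 4.89 on 5 reads in K185R and 12.9 on 21 reads in WT (-1.40). The one pair in the other direction, chr12:132072873-132073296, had 14.5 on 22 reads in K185R and 7.10 on 8 reads in WT (1.03). Across the 8 pairs higher in WT, K185R intervals had 4 to 6 summit reads, where the lowest count called in that list was 3.

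**Figure D4:**
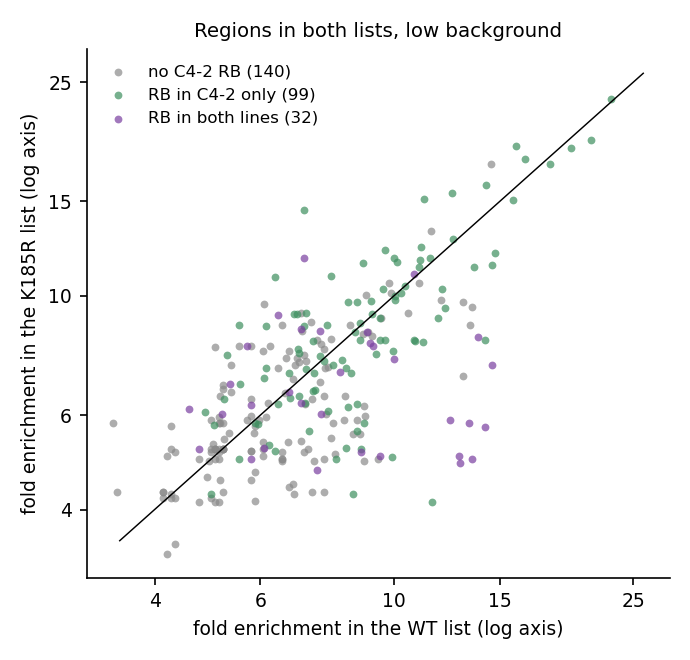
Fold enrichment of low-background regions held by both lists, in the K185R list (vertical log axis) and in the WT list (horizontal log axis); the line marks equal folds and colours mark the RB class. Most of the 271 pairs lie along the line, and 6 of the 32 pairs on RB sites of both lines lie more than 2-fold below it.

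WT-only intervals at RB sites of both lines were found more often in other WT lists than in other K185R lists. Of the 527 WT-only intervals at RB sites of both lines, 9.49% had an interval in untreated K185R cells, 4.36% in K185R with doxycycline and 12.3% in K185R with GSK2879552. In WT cells the same intervals were found in 35.7% untreated, 17.6% with doxycycline and 41.2% with GSK2879552. The other WT lists differ in length, from 2805 intervals in WT with GSK2879552 to 64025 in WT with doxycycline, and the shortest of them held the largest share. Counted over the 538 RB sites with WT alone, 106 (19.7%) had an interval in at least 1 of the 3 other K185R lists and 310 (57.6%) in at least 1 of the 3 other WT lists. Among those, 10 had one in other K185R lists and in no other WT list, and 214 the reverse. These sites were chosen for a WT interval and for none in K185R, so this order is a description.

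Most intervals at no RB site were in none of the 6 other V5 lists, 57.3% of the 2806 of the K185R list alone and 56.3% of the 2320 of the WT list alone. In other K185R lists, those of the K185R list alone were found at 20.5% untreated, 10.1% under doxycycline and 5.95% under GSK2879552, and those of the WT list alone at 21.1% untreated, 11.6% under doxycycline and 6.90% under GSK2879552. In other WT lists, those of the K185R list alone were found at 8.34% untreated, 22.0% under doxycycline and 59 of 2806 under GSK2879552, and those of the WT list alone at 10.9% untreated, 23.4% under doxycycline and 88 of 2320 (3.79%) under GSK2879552. Their median fold was 4.96 in both lists, on 5 reads in both. By comparison, 78 of the 114 K185R intervals shared with WT at RB sites of C4-2 only (68.4%) were present in all 6 other V5 lists.

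**Figure D5:**
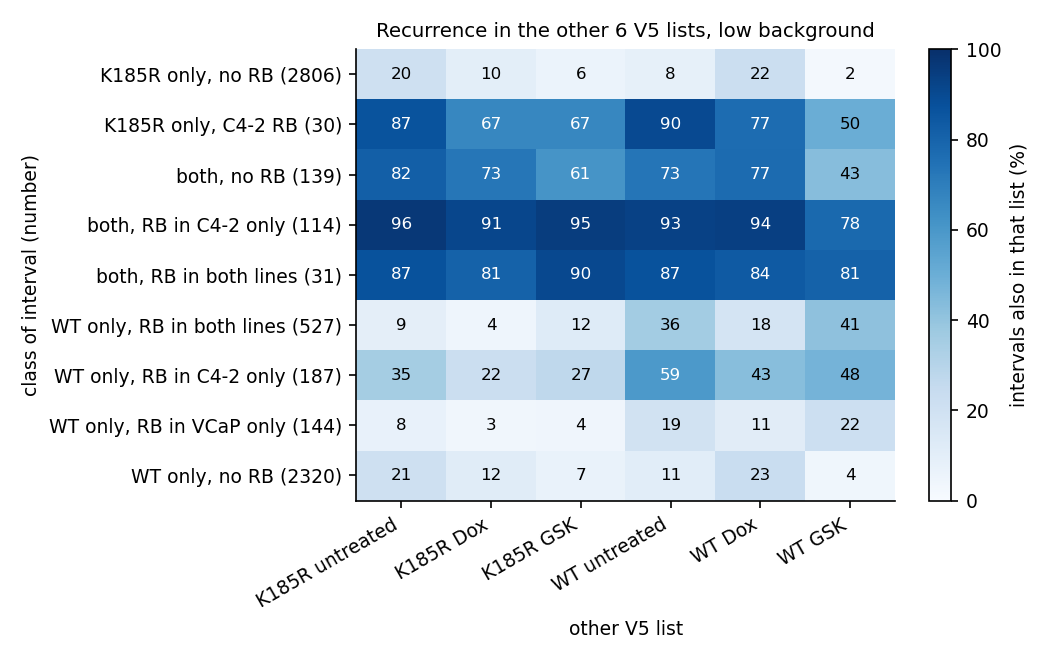
Percent of low-background intervals (colour and number) of each class (vertical axis, with the number of intervals) that overlap an interval in each of the 6 other V5 lists (horizontal axis). WT-only intervals at RB sites of both lines are at 4.36% to 12.3% in K185R columns and at 17.6% to 41.2% in WT columns, and intervals held by both lists are at 43.2% or more in every column.

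The other treatments gave the same order at RB sites of both lines, each from its own pair of lists. At the 5233 sites, untreated cells had 38 with K185R alone and 314 with WT alone. Doxycycline gave 27 with K185R alone and 167 with WT alone, and GSK2879552 gave 47 with K185R alone and 401 with WT alone. The combination gave 10 with K185R alone and 538 with WT alone. Of the sites with a WT interval, 30.1% also had a K185R interval when untreated, 31.8% under doxycycline, 24.2% under GSK2879552 and 10.9% under the combination. At the 3476 RB sites of C4-2 only the same shares were 74.4%, 69.7%, 62.8% and 50.5%. The counts of both lines lay close together there in untreated cells, with 139 in K185R alone and 149 in WT alone, and under GSK2879552, with 143 in K185R alone and 163 in WT alone. They lay further apart under doxycycline, with 36 in K185R alone and 170 in WT alone. The same held under the combination, with 50 in K185R alone and 227 in WT alone. List lengths differed as well. Untreated lists had 55681 intervals for K185R and 15099 for WT, and GSK2879552 lists had 9899 for K185R and 2805 for WT. Doxycycline lists had 22328 for K185R and 64025 for WT. Treatment and list length thus cannot be told apart in these counts. The combination had the lowest share of WT sites with a K185R interval in both classes. Its K185R list was also the shortest of that line, 3498 intervals where the other K185R lists had 9899 to 55681, and the difference between treatments was not tested.

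A region missing from the K185R list can still have had reads there. For each low-background interval of one list alone, the number of reads the other list would have needed to call it was computed from the same multiple of the floor and the lowest −log10 p of that list, 4.12 for K185R and 4.11 for WT. The 527 WT-only intervals at RB sites of both lines had a median of 8.24 summit reads, scaled by 1.03 to the K185R floor, where a median of 4 would have been called. At least 1.5 times the needed reads were present in 432 of them (82.0%) and at least 2 times in 204 (38.7%). These are WT reads, at intervals chosen for a WT call and for none in K185R, a choice that favours high WT counts. The K185R reads at these intervals are not known, so the values are a description. At no RB site, at least 1.5 times the needed reads were present in 1357 of 2806 intervals of the K185R list alone (48.4%). For the WT list alone it was 1100 of 2320 (47.4%). At least 2 times the needed reads were present in 42 of 2806 of the K185R list alone. For the WT list alone it was 181 of 2320 (7.80%).

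Distances between V5 and RB summits were measured only where the intervals overlap, which by itself keeps them short, so they are a description. The median distance was 73 bases for the 5 K185R-only intervals at RB sites of both lines and 48 bases for the 527 WT-only ones. For intervals in both lists at RB sites of C4-2 only it was 14 bases, counted in the 114 K185R intervals, and 11.5 bases, counted in the 102 WT intervals. Of the intervals at C4-2 RB sites, 82.9% in the K185R list and 80.0% in the WT list had their summit within 100 bases of the RB summit.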

How the data were processed

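The deposited lists hold MACS2 intervals on hg19, with the authors' fold (a ratio of summit reads to local background), −log10 p, −log10 q, and a score that is 10 times the −log10 q. Tools in the submitters' processing notes are MACS2 2.1.0, SAMtools 1.2, BWA 0.7.9a and FastQC 0.11.9; their settings, duplicate removal and control libraries are not stated there. The depth of single libraries is unknown. The deposited fold and −log10 p fix summit reads and local background: the fold adds 1 read to both terms and p is a Poisson tail. Recomputed −log10 p differed from the deposited by at most 0.00016. The floor is the lowest background that 5 or more intervals have in common, and depth is the floor per smallest interval width. Reads without molecular identifiers are not independent molecules.

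Overlap of at least 1 base was counted with Python 3.11.15, pandas 2.3.3 and SciPy 1.17.1, and was checked against bedtools and, for recovered reads, on simulated data. Named regions are the 8 of highest −log10 q per class at low background, ties by fold; for both lists the smaller of the pair ranks. Sites, lists and comparisons were chosen with earlier results of these data known. Nearby genes and sequences were not analysed here, since the annotation used is of another build, GRCh38.p14.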

Additional observations from a re-analysis of the deposited data

How the results depend on the processing

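No paired analysis was possible because each group has 1 merged list, and for the same reason no library could be left out. Intervals near gene starts were not run, under any setting, since no annotation of hg19 was used. Values below are, in order where they changed: the length of the K185R list over the WT list (0.903 as reported); the share of C4-2 RB sites with an interval, K185R minus WT (-7.83 percentage points); the same at VCaP RB sites (-3.90) and at RB sites of both lines (-10.1); the share of V5 intervals at C4-2 RB sites, K185R minus WT (-16.7); the shared percent of the K185R list (17.4) and of the WT list (15.6); and the median fold of shared minus unshared intervals in the K185R list (0.920) and in the WT list (1.099). All are for the full lists, high background included, except that RB sites of both lines are of low background. Of 70 values under other settings, 5 turned in direction; the 3 differences in share of RB sites kept theirs in every setting run.

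For V5 and RB intervals of −log10 q 5 or more, they were 0.527, -5.54, -2.81, -7.01, 5.43, 74.0, 38.9, 0.0203 and -0.468. With at least 8 summit reads they were 0.545, -4.26, -1.89, -5.29, 1.17, 74.9, 40.8, 0.153 and -0.625. Without high background, and with the threshold on V5 only, these turns were absent. The fold differences use no RB sites. Against all C4-2 RB sites, with −log10 q 5 or more for V5 only, 419 of 585 K185R and 790 of 1111 WT intervals of the full lists lay at one. At low background it was 114 of 251 for K185R and 450 of 726 for WT. For the shares of RB sites, the sites counted changed too, so the effect of removing high-background V5 intervals alone cannot be told apart there. The 2 settings that combine removal of high background with a threshold, and the result on RB sites of both lines, were chosen after seeing the data. Combined with −log10 q of at least 5 for V5 only, the values were 0.346, -3.97, -1.72, -4.89, 48.6, 16.8, 1.84 and 1.77 with the share of V5 intervals at -16.6. Combined with 8 reads they were 0.352, -4.13, -1.91, -5.31, -12.8, 53.4, 18.95 and 1.43. Without high background in either list or in the RB sites, and with no threshold, the share of V5 intervals was -18.9, the shared percents 8.65 and 7.80, and the fold differences 1.65 and 2.02. With the 1000 strongest intervals of each list the values from the C4-2 RB sites on were -3.18, -1.41, -4.20, -28.3, 45.9, 45.7, 0.524 and -0.494. The fold differences of that setting were not run without high background. With 50% of both intervals overlapping they were -5.40, -1.47, -7.34, -11.9, 15.2 and 13.7, and with summits within 100 bases -6.06, -2.21, -7.64, -13.0, 14.9 and 13.5. The cause of these shifts was not tested. Depth limits what is missing: most intervals rest on 5 or fewer reads.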

Other observations

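High-background intervals made up most of the overlap between the lists. Of the 375 in the K185R list 322 (85.9%) were shared, and of the 424 in the WT list 333 (78.5%). Over 323 pairs of them, the median log2 ratio of the K185R fold to the WT fold was 0.01, on a median of 50 summit reads in K185R and 51 in WT, and 276 pairs (85.4%) had an interval in all 6 other V5 lists. Of the high-background intervals, 42 (11.2%) in the K185R list and 37 (8.73%) in the WT list lay on chromosome Y. At low background, 15 of the 3123 K185R and 21 of the 3450 WT intervals lay there.

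Gene-rich chromosome 19 and gene-poor chromosome 18 were represented differently among the classes. Of the 2838 low-background intervals of the K185R list alone, 51 lay on chromosome 19 and 70 on chromosome 18. Of the 714 of the WT list alone at C4-2 RB sites, 26 lay on chromosome 19 and 10 on chromosome 18, and of the 2464 of the WT list alone elsewhere, 48 and 73. The 8709 C4-2 RB sites of low background had 425 on chromosome 19 and 135 on chromosome 18.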
